A study of Macaca fascicularis with 6 samples.

Results

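On the first day after corneal injury, 496 of 2749 deposited cell barcodes held at least 3 counts of KRT4 plus KRT7, out of 7895 barcodes in the whole study. These KRT4/KRT7 barcodes numbered 273 of 1482 in day 1 replicate 1 and 223 of 1267 in day 1 replicate 2. They were chosen on the raw counts of those genes, so KRT4 and KRT7 were removed before any scaling or test, and their own values are given only as a description. KRT4 and KRT7 are keratins of non-cornified stratified and simple epithelia, and in the eye they are used as markers of conjunctival epithelium, whereas KRT12 and KRT3 form the keratin pair of differentiated corneal epithelium. The conjunctiva is a mucosal epithelium with membrane mucins, secreted defence proteins and goblet cells. It meets the cornea at the limbus, where the corneal stem cells lie.

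Epithelium of the cornea was sampled from cynomolgus monkeys (Macaca fascicularis, wild type) without injury (day 0, 2 samples) and at day 1 (2 samples) and day 3 (2 samples) after corneal injury. Cells were captured on the 10x Genomics Chromium controller and sequenced by HIT-scISOseq, a long-read method for full-length cDNA of single cells. No age, sex or injury method is used here, and the labels do not say whether the replicates came from different animals, so p-values reflect only the spread among these libraries, and that spread may be technical. Counts per sample ranged from 3733442 to 4928103. Within day 1, the replicates' summed counts gave chi-square values of 2.28 (KRT4/KRT7 barcodes) and 3.69 (others) for each degree of freedom, above the 1 of pure sampling, and no replicate pair was treated as 1 library. No barcode was shared by the day 1 samples, and 8 were shared over all pairs of samples.

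The label of conjunctival-like cells was checked against markers other than KRT4 and KRT7. The conjunctival markers KRT19, MUC1, MUC20 and AQP5 were all higher in KRT4/KRT7 barcodes at day 1, and the corneal keratins KRT12, KRT3 and KRT24 were all lower. In uninjured cornea, however, KRT24 was higher in KRT4/KRT7 barcodes than in the others (values below). PAX6, the eye-field transcription factor expressed in both epithelia, was counted in both classes. Other markers of the list (KRT13, KRT8, KRT18, MUC4, MUC16 and MUC21) and the goblet mucin MUC5AC were not analysed here. The mucin MUC22, outside this list, was lower in KRT4/KRT7 barcodes of both day 1 samples (values below). The conjunctival-like name therefore rests on 4 markers besides the genes of the rule, and these sources give no position of the cells in the tissue.

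The share of barcodes that met the rule was 14.3% and 17.0% in uninjured cornea (95% Clopper-Pearson intervals 12.6 to 16.1% and 15.1 to 19.1%, for counting error only). At day 1 it was 18.4% in replicate 1 (16.5 to 20.5%) and 17.6% in replicate 2 (15.5 to 19.8%). At day 3 it was 35.6% (32.7 to 38.5%) and 35.1% (32.2 to 38.1%). Barcodes with at least 2000 counts were also thinned to 2000 counts, and shallower ones were left out. This removed 581 and 440 uninjured barcodes, 291 and 356 at day 1, and 64 and 61 at day 3. Only 21 and 10, 20 and 16, and 6 and 13 of these met the rule, so the loss by itself raises the uninjured and day 1 shares. Thinned shares were 17.8% of 984 and 19.5% of 977 in uninjured cornea and 18.4% of 1191 and 19.8% of 911 at day 1. At day 3 they were 25.4% of 1032 and 22.2% of 1007. Day 1 lay next to uninjured cornea and below day 3 in both versions, although after thinning the interval of day 1 replicate 2 (17.2 to 22.5%) overlapped that of day 3 replicate 2 (19.7 to 24.9%). With 2 samples a group, an exact two-sided permutation test cannot go below p = 0.333, so no test was made. Among barcodes with at least 50 KRT12 counts, which should lack conjunctival keratins, 1.14% of 612 and 1.03% of 485 met the rule at median depths of 3703 and 3584 counts, against median depths of 4490 and 4213 counts in KRT4/KRT7 barcodes.

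Most of these barcodes entered the rule through KRT4. At day 1, 179 and 151 had KRT4 counts with KRT7 at 0, 91 and 69 had counts of both keratins, and 3 and 3 had KRT7 with KRT4 at 0. The median KRT4 count was 13 and 12, with the highest barcodes at 73 and 67, whereas the highest KRT7 counts were 9 and 12. Barcodes with both keratins were 4.02% and 7.05% of the KRT4/KRT7 barcodes in uninjured cornea, 33.3% and 30.9% at day 1, and 40.3% and 41.1% at day 3, where 159 and 155 barcodes had KRT7 with KRT4 at 0. The rule therefore gathered mainly KRT4-positive barcodes at day 1 and a more KRT7-rich set at day 3.

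**Figure D1:**
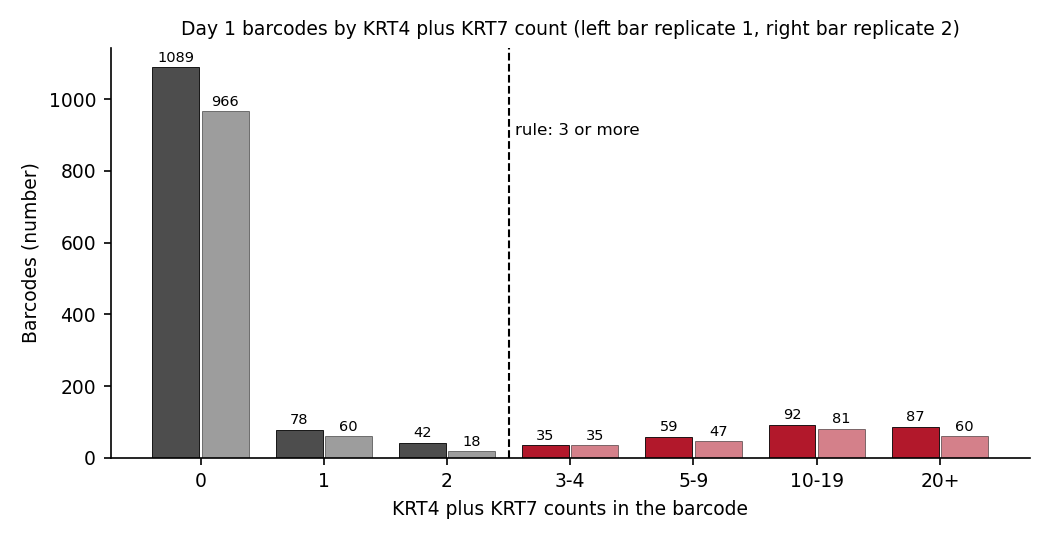
Number of day 1 barcodes (y axis) by their summed KRT4 plus KRT7 count (x axis, in classes), with replicate 1 as the left bar and replicate 2 as the right bar; red bars meet the rule of 3 or more. Most barcodes had no count (1089 and 966), and 87 and 60 had 20 or more.

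Across the threshold the other markers changed in step, given here as a description because the rule fixes the classes. In barcodes with 2 counts, just outside the rule, KRT12 stood at 9573 and 12776 CPM (counts scaled to the same total in every set of barcodes), and in barcodes with 3 or 4 counts, just inside, at 2791 and 3500 CPM. With 5 to 9 counts it was 281 and 199 CPM. S100A9 was 2864 and 3882 CPM with 2 counts, 9214 and 6909 with 3 or 4, and 12766 and 13932 with 5 to 9. KRT19 ran the same way, at 1184 and 2560 CPM with 2 counts and 3586 and 3053 with 3 or 4. The lowest class inside the rule thus held more KRT12 than the classes above it in both samples.

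**Figure D2:**
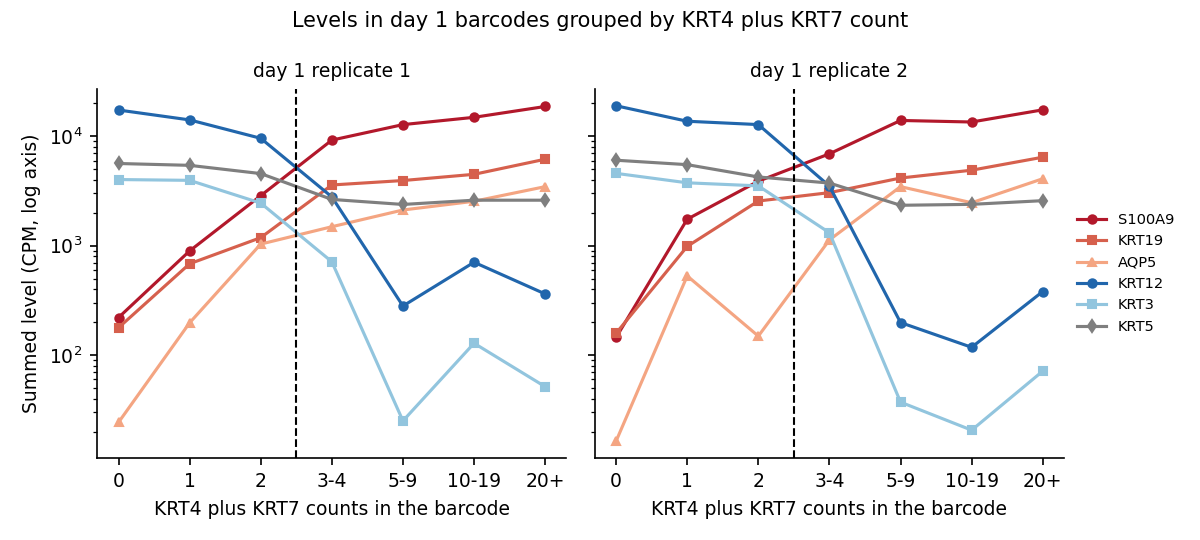
Level of 6 genes in CPM of the summed barcodes (y axis, log scale) by KRT4 plus KRT7 count of the barcode (x axis) in each day 1 sample; the dashed line is the rule. KRT12 stood at 2791 and 3500 in the class of 3 or 4 counts and at 281 and 199 in the class of 5 to 9, while S100A9, KRT19 and AQP5 were above their levels in barcodes with no KRT4 or KRT7.

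The genes whose level followed KRT4 most closely over thinned day 1 barcodes (1191 and 911 barcodes) were GSTA3, a glutathione transferase, with Spearman's rho of 0.84 and 0.86, KRT19 with 0.77 and 0.81, S100A9 with 0.75 and 0.80, PIP, a secreted glycoprotein of exocrine glands, with 0.78 and 0.76, and S100A8 with 0.75 and 0.77. KRT7 is sparse at this depth, and its closest genes reached lower values: AQP5 with 0.25 and 0.33, PIP with 0.26 and 0.33, MUC1 with 0.26 and 0.28, SLC6A14 with 0.24 and 0.31 and CXCL17 with 0.24 and 0.29. KRT4 and KRT7 themselves had rho of 0.23 and 0.31. The barcodes of a sample share a library and a fixed depth, so the values are descriptions without a test. Since 938 and 704 of the barcodes lay outside the rule, the values partly mark the 2 classes. Within KRT4/KRT7 barcodes (253 and 207), KRT4 had lower rho with the same 5 genes. It was 0.32 and 0.38 with GSTA3, 0.36 and 0.27 with KRT19, and 0.23 and 0.27 with S100A9. With PIP it was -0.06 and -0.01, and with S100A8 0.33 and 0.35.

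KRT4/KRT7 barcodes were set against the other barcodes of the same day 1 samples by edgeR's quasi-likelihood test on counts summed per sample and class, with the sample as a block. Levels are from here on CPM after TMM scaling. Of 11638 genes tested, 3707 passed a Benjamini-Hochberg adjusted p of 0.05 (31.9%), with 2093 higher (18%) and 1614 lower (13.9%), so nearly 1 gene in 3 differed and a list is read against that background. The count was 1976 with DESeq2 and 2375 without day 1 replicate 1. Scaling to totals alone moved the median of all genes by -0.27 on the log2 scale and gave 1457 higher among 4634 called genes, so directions below are relative to the TMM scaling. KRT4/KRT7 barcodes also held more counts than the others (medians of 4490 and 4213 against 3061 and 2679) and a larger share of mitochondrial counts (8.88% and 9.08% against 6.64% and 6.68%). The part of the mitochondrial share in the results was not tested. Against other barcodes matched in depth, 2999 genes passed.

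Tested genes of the list of conjunctival keratins and mucins, which also holds AQP5 and S100A4, were mostly higher in KRT4/KRT7 barcodes. Of its 21 genes 11 were tested: 10 were higher, none was lower and S100A4 did not pass. The median log2 change was 1.19 against -0.01 over all genes. With totals alone the counts were 8 higher and 1 lower. The mucin MUC22, outside that list, was lower in KRT4/KRT7 barcodes of both day 1 samples (values below). KRT19, a keratin of simple and mucosal epithelia, stood at 6177 and 6025 CPM in KRT4/KRT7 barcodes, against 261 and 249.6 CPM in the others, a log2 difference of 4.58 ± 0.06 (edgeR adjusted p = 6.48e-55). AQP5, a water channel of secretory epithelia, had 3408 and 3623 CPM in KRT4/KRT7 barcodes, against 76.8 and 52.4 CPM in the others (log2 difference 5.75 ± 0.11). MUC1, a transmembrane mucin of the ocular glycocalyx, had 410.0 and 415 CPM in KRT4/KRT7 barcodes, against 16.7 and 11.2 CPM in the others (log2 difference 4.86 ± 0.13). The membrane mucin MUC20 had 213 and 169 CPM in KRT4/KRT7 barcodes, against 7.06 and 3.85 CPM in the others (log2 difference 5.09 ± 0.20). In each of these genes both samples were high in KRT4/KRT7 barcodes. Of all KRT19 counts, 87.7% and 87% lay in KRT4/KRT7 barcodes, which held 26.5% and 25.1% of all counts. After thinning to 2000 counts, KRT19 was counted in 96.8% of 253 and 98.1% of 207 KRT4/KRT7 barcodes, against 18.9% of 938 and 16.9% of 704 others.

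Genes of secretory cells were higher too, though the goblet cell programme could be read only in part. Of 8 tested genes 7 were higher and AGR2, a protein disulphide isomerase of mucus-producing cells, was lower, at 456 and 354 CPM in KRT4/KRT7 barcodes, against 574 and 566 CPM in the others. SLPI, a secreted antiprotease, had 76.2 and 70.5 CPM in KRT4/KRT7 barcodes, against 2.82 and 1.75 CPM in the others. LCN2, an iron-sequestering defence protein, had 94 and 102 CPM in KRT4/KRT7 barcodes, against 7.34 and 3.85 CPM in the others. Both secreted proteins stayed below 10 CPM in the other barcodes of either sample. SPDEF, a transcription factor of goblet cells, rested on 12 counts in KRT4/KRT7 barcodes against 1 in the others and was 41.4-fold higher, with an exact 95% counting interval of 6.12 to 1768. TFF1, a trefoil peptide, had 190 counts in KRT4/KRT7 barcodes and 75 in the others of replicate 1 but no row in the table of replicate 2, so its call rests on 1 sample.

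The corneal programme was lower. Of 16 tested genes of corneal differentiation 12 were lower, 3 were higher and 1 did not pass, with a median log2 change of -2.14. KRT12 stood at 819 and 685 CPM in KRT4/KRT7 barcodes, against 17191 and 18096 CPM in the others, a log2 difference of -4.55 ± 0.06 (edgeR adjusted p = 1.08e-53), and KRT3 at 158 and 209 CPM in KRT4/KRT7 barcodes, against 4047 and 4403 CPM in the others, a log2 difference of -4.54 ± 0.07. WNT7A, a Wnt ligand of corneal epithelium, had 1 count in KRT4/KRT7 barcodes and 118 in the others, 34.2-fold lower, with an exact 95% counting interval of 6.03 to 1364. The 3 higher genes, named after their values were seen, were the transcription factors PAX6 (0.22), KLF5 (0.74) and FOXC1 (1.42, all log2 differences). With totals alone 2 of the list were higher, and the PAX6 difference is smaller than that shift. Outside the lists, MGARP, a mitochondrial protein, had 55.5 and 36.5 CPM in KRT4/KRT7 barcodes, against 1231 and 1185 CPM in the others. ANGPTL7, a secreted angiopoietin-like protein of the cornea, had 13.2 and 1.26 CPM in KRT4/KRT7 barcodes, against 207 and 227 CPM in the others. DKK3, a secreted Dickkopf-family protein, had 0.940 and 3.78 CPM in KRT4/KRT7 barcodes, against 106 and 118 CPM in the others. All 3 were named as lowest genes of this same comparison, so their separation between the classes is no added support. ETNPPL, an enzyme of phosphoethanolamine breakdown, and SCIN, an actin-severing protein, were lower by log2 -5.23 and -4.82.

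Basal and limbal genes were mostly lower but split between keratins: of 19 tested, 13 were lower, 3 higher and 3 did not pass, with a median of -0.84 (-0.79 with the gene at 0 set to its bound). KRT5, a basal keratin, had 3146 and 3044 CPM in KRT4/KRT7 barcodes, against 5705 and 5833 CPM in the others. Its partner KRT14 had 1035 and 954 CPM in KRT4/KRT7 barcodes, against 1381 and 1409 CPM in the others. KRT15, a keratin of limbal and conjunctival basal cells, was higher at 675 and 642 CPM in KRT4/KRT7 barcodes, against 193 and 178 CPM in the others, as were SOX9 (log2 difference 2.64 ± 0.29) and CDH13. CXCL14, a chemokine of basal epithelium, had 51.7 and 36.5 CPM in KRT4/KRT7 barcodes, against 328 and 272 CPM in the others. GPHA2, a limbal stem cell marker, had 0 counts in KRT4/KRT7 barcodes and 15 in the others, which makes it at least 1.45-fold lower against a floor of 3 counts over the group, and its call was lost with DESeq2 (adjusted p = 0.702), with an adjusted p of 0.0719 to 0.851 over the alternatives that lost it.

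**Figure D3:**
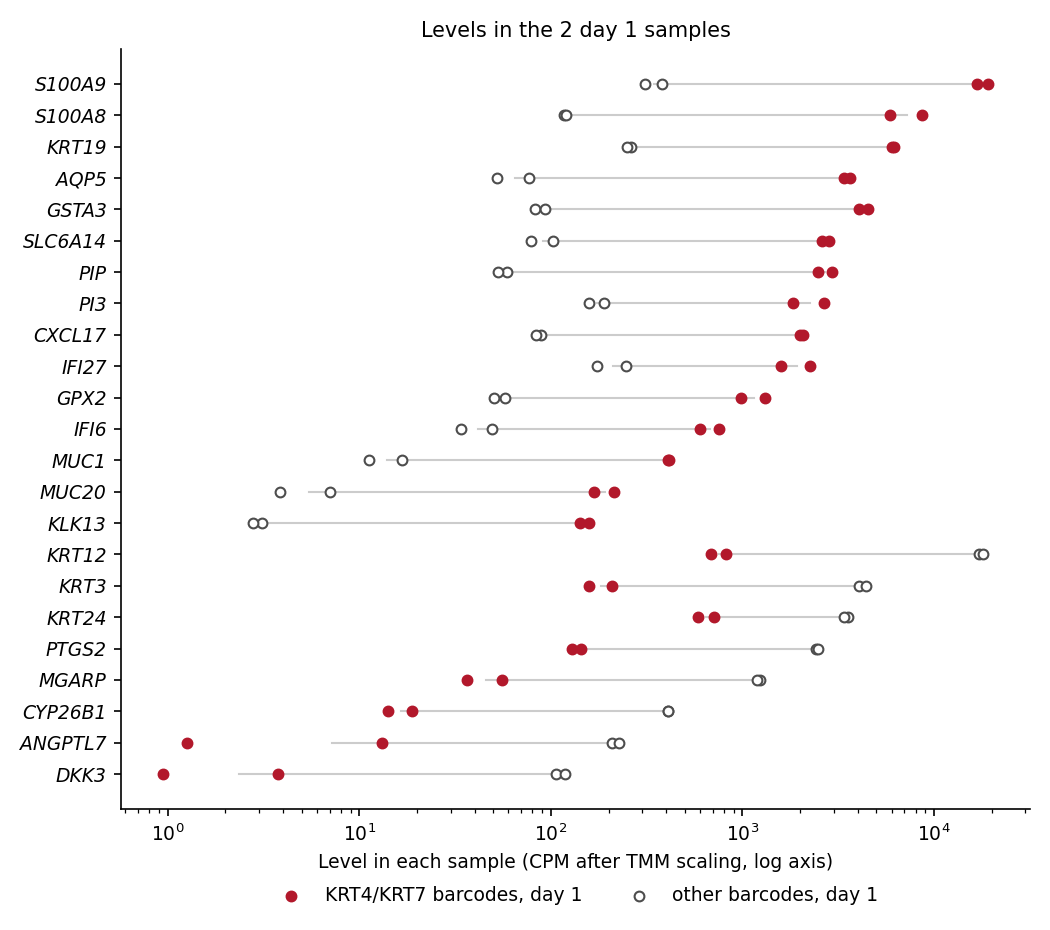
Level of 23 genes in CPM after TMM scaling (x axis, log scale) in each day 1 sample, with KRT4/KRT7 barcodes as filled red points and other barcodes as open grey points; the grey line joins the class means. Most of these genes were named for large class differences in these same data, so their separation here is no added support. KRT19, for example, stood at 6177 and 6025 CPM against 261 and 249.6 CPM.

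Among the wound keratins and alarmins, all 6 tested genes were higher, with a median log2 change of 2.91. S100A9 and S100A8 form calprotectin, a calcium- and zinc-binding alarmin of stressed mucosa and of myeloid cells. S100A9 had 19225 and 16795 CPM in KRT4/KRT7 barcodes, against 379 and 310.1 CPM in the others, a log2 difference of 5.71 ± 0.06 (edgeR adjusted p = 2.55e-60), and 93.8% and 93.8% of its counts lay in KRT4/KRT7 barcodes. S100A8 had 8659 and 5872 CPM in KRT4/KRT7 barcodes, against 117 and 119.6 CPM in the others. PI3 (elafin), an elastase inhibitor induced in wounded epithelium, had 2678 and 1827 CPM in KRT4/KRT7 barcodes, against 190.3 and 158 CPM in the others with a log2 difference of 3.69 ± 0.07, while the wound keratins KRT6A (1.04), KRT16 (0.66) and KRT17 (2.14, log2 differences) moved less. Beside these values, the leukocyte marker PTPRC (CD45) had 0 counts in KRT4/KRT7 barcodes of both samples and 1 and 4 counts in the others. The 8 immune genes with a row summed to 544 and 536 CPM in KRT4/KRT7 barcodes and 90.1 and 91.6 CPM in the others. Of 4 immune genes tested 3 were higher. LYZ, a secreted lysozyme also made by glandular epithelium, stood at 448 and 446 CPM in KRT4/KRT7 barcodes, against 68 and 57.7 CPM in the others. CD68 stood at 81.8 and 86.9 CPM in KRT4/KRT7 barcodes, against 17.8 and 24.8 CPM in the others. TYROBP had 8 counts in KRT4/KRT7 barcodes against 2 in the others, a call that was lost without day 1 replicate 1 (edgeR adjusted p = 0.885).

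Genes of cornified and superficial cells were higher in 12 of 16 tested and lower in 3 (LY6D, MAL and PPL, named after their values were seen), with a median of 2.44. The kallikrein protease KLK13 had 159 and 142 CPM in KRT4/KRT7 barcodes, against 3.11 and 2.80 CPM in the others (log2 difference 5.65 ± 0.23), and CRNN (cornulin), a cornified envelope protein, had 32 and 16.4 CPM in KRT4/KRT7 barcodes, against 0.565 and 1.05 CPM in the others. Of 16 tight junction and desmosome genes 7 were higher and 5 lower, with a median of 0.02, and members of 1 family moved apart: the claudin CLDN3 had 134 and 218 CPM in KRT4/KRT7 barcodes, against 15.5 and 9.79 CPM in the others. CLDN1 had 352 and 344 CPM in KRT4/KRT7 barcodes, against 870.4 and 862 CPM in the others. The desmosomal cadherin DSG2 had 113 and 99.5 CPM in KRT4/KRT7 barcodes, against 35.9 and 29.7 CPM in the others.

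Interferon response and antigen presentation genes were higher in 12 of 15 tested, and none was lower (1 was lower when scaled to totals alone), with a median of 1.34. IFI6, an interferon-induced mitochondrial protein, had 753 and 603 CPM in KRT4/KRT7 barcodes, against 49.1 and 33.9 CPM in the others (log2 difference 4.02 ± 0.09). The antiviral enzyme OAS1 had 32 and 41.5 CPM in KRT4/KRT7 barcodes, against 1.69 and 1.05 CPM in the others. The GTPase MX2 had 22.6 and 21.4 CPM in KRT4/KRT7 barcodes, against 0.847 and 0.699 CPM in the others. Inflammation and NF-kB genes were split, with 8 of 18 higher, 2 lower and 8 not passing. IL33, a nuclear alarmin cytokine, had 284 and 227 CPM in KRT4/KRT7 barcodes, against 22 and 18.5 CPM in the others. PTGS2 (cyclooxygenase 2), which makes prostaglandin precursors, had 143 and 128 CPM in KRT4/KRT7 barcodes, against 2410.1 and 2478 CPM in the others, a log2 difference of -4.16 ± 0.08. CXCL1 was the other lower gene (-0.75, named after its value was seen).

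Of 10 tested retinoid genes 5 were higher, 2 lower and 3 did not pass, with a median of 1.15 (1.85 with the gene at 0 at its bound or, with no row, left out). DHRS9, a retinol dehydrogenase on the synthesis side, had 387 and 347 CPM in KRT4/KRT7 barcodes, against 5.36 and 10.1 CPM in the others (log2 difference 5.61 ± 0.18). CYP26B1, which hydroxylates and inactivates retinoic acid, had 14.1 and 18.9 CPM in KRT4/KRT7 barcodes, against 411 and 406 CPM in the others (log2 difference -4.66 ± 0.15). RARRES1, a retinoic acid receptor responder, had 256 and 200.2 CPM in KRT4/KRT7 barcodes, against 33 and 9.44 CPM in the others. Among oxidative stress genes 8 of 15 were higher and 4 lower. The glutathione peroxidase GPX2 had 1308 and 984 CPM in KRT4/KRT7 barcodes, against 57.9 and 50.7 CPM in the others. The quinone reductase NQO1 had 47 and 45.3 CPM in KRT4/KRT7 barcodes, against 311 and 344 CPM in the others. Lipid and membrane transport genes had 4 higher and 5 lower of 12: the amino acid transporter SLC6A14 had 2601 and 2830.0 CPM in KRT4/KRT7 barcodes, against 102 and 79 CPM in the others. ATP1B1, a sodium pump subunit, had 247 and 254 CPM in KRT4/KRT7 barcodes, against 17.2 and 16.4 CPM in the others.

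Genes of migration and matrix were lower in 8 of 18 tested and higher in 4, with a median of -0.58 (-0.30 with the genes at 0 at their bound or, with no row, left out). MMP3 had 1.88 and 2.52 CPM in KRT4/KRT7 barcodes, against 20.3 and 18.9 CPM in the others. SERPINE2, a serine protease inhibitor, had 245 and 258 CPM in KRT4/KRT7 barcodes, against 40.4 and 52.8 CPM in the others. MMP7 (matrilysin), which heads the higher genes at an average of 32 CPM or more, had 181 counts in KRT4/KRT7 barcodes and 2 in the others and was 312-fold higher, with an exact 95% counting interval of 85.1 to 2595. DESeq2 did not call it (adjusted p = 0.218), while edgeR did in all alternatives run. Further genes of the 8 highest were RHCG, SERPINB11, TMEM45A and FAM3D. RHCG, an ammonium transporter, had 60.2 and 85.6 CPM in KRT4/KRT7 barcodes, against 0.565 and 1.40 CPM in the others. SERPINB11, a serpin, had 73.3 and 65.5 CPM in KRT4/KRT7 barcodes, against 0.565 and 2.10 CPM in the others. RHCG and SERPINB11 stayed under 3 CPM in the other barcodes of both samples. TMEM45A, a transmembrane protein, had 258 and 302 CPM in KRT4/KRT7 barcodes, against 1.98 and 6.64 CPM in the others. FAM3D, a secreted cytokine-like protein, had 386 and 393 CPM in KRT4/KRT7 barcodes, against 9.88 and 4.89 CPM in the others. Of DNA replication and mitosis genes 4 of 17 were lower and none higher, with a median of -0.79 (-0.61 with genes at 0 at their bound or, with no row, left out). TOP2A had 0 counts in KRT4/KRT7 barcodes and 34 in the others, at least 3.29-fold lower, and its call was lost without day 1 replicate 1 (edgeR adjusted p = 0.0849) or without the sample block (0.0660). MKI67, listed at day 1 in the table of replicate 1 alone, lost its call with DESeq2 (adjusted p = 0.333) and without the block (0.261), and MCM2 with DESeq2 (0.119), without replicate 1 (0.121) and with a rule of 2 or more counts (0.0576), so that DESeq2 called 2 of the 17.

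The remaining lists moved less or in both directions. Immediate early genes were higher in 11 of 16 and lower in 5, with a median of 0.52 and EGR1 at 621 and 590.4 CPM in KRT4/KRT7 barcodes, against 249 and 241 CPM in the others. EGF family genes had 3 higher and 2 lower of 10, with the ligand AREG at 1082 and 1098 CPM in KRT4/KRT7 barcodes, against 581 and 546 CPM in the others. The ligand EPGN stood at 26.3 and 16.4 CPM in KRT4/KRT7 barcodes, against 126 and 128 CPM in the others. Notch genes had 5 higher and 2 lower of 12, glycolysis 2 and 2 of 5, and secretory pathway and ER stress 6 and 3 of 13. Nuclear genes of oxidative phosphorylation had 3 higher and 3 lower of 10 (1 and 7 with totals alone), and ribosomal proteins 2 and 4 of 15 (1 and 13 with totals alone), with medians of -0.09 and 0.01. Keratocyte and fibroblast genes had 1 higher and 1 lower of 7, and their 9 genes with a row summed to 86.5 and 60.4 CPM in KRT4/KRT7 barcodes and 253 and 239 CPM in the others. Melanocyte genes had 2 higher and 1 lower of 4 and summed to 34.8 and 31.5 CPM against 20.6 and 32.5 CPM, and no vascular or blood gene could be tested, at 1.88 and 1.26 CPM against 6.78 and 2.45 CPM. The higher calls of MLANA (melanocytes) and COL1A2 (fibroblasts, 5 counts against 2) were lost with DESeq2 (adjusted p = 0.438 and 0.114) and without either day 1 sample (edgeR adjusted p = 0.256 and 0.0662 for MLANA, 0.118 and 0.30 for COL1A2). The part of these cell types in the results was not tested.

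**Figure D4:**
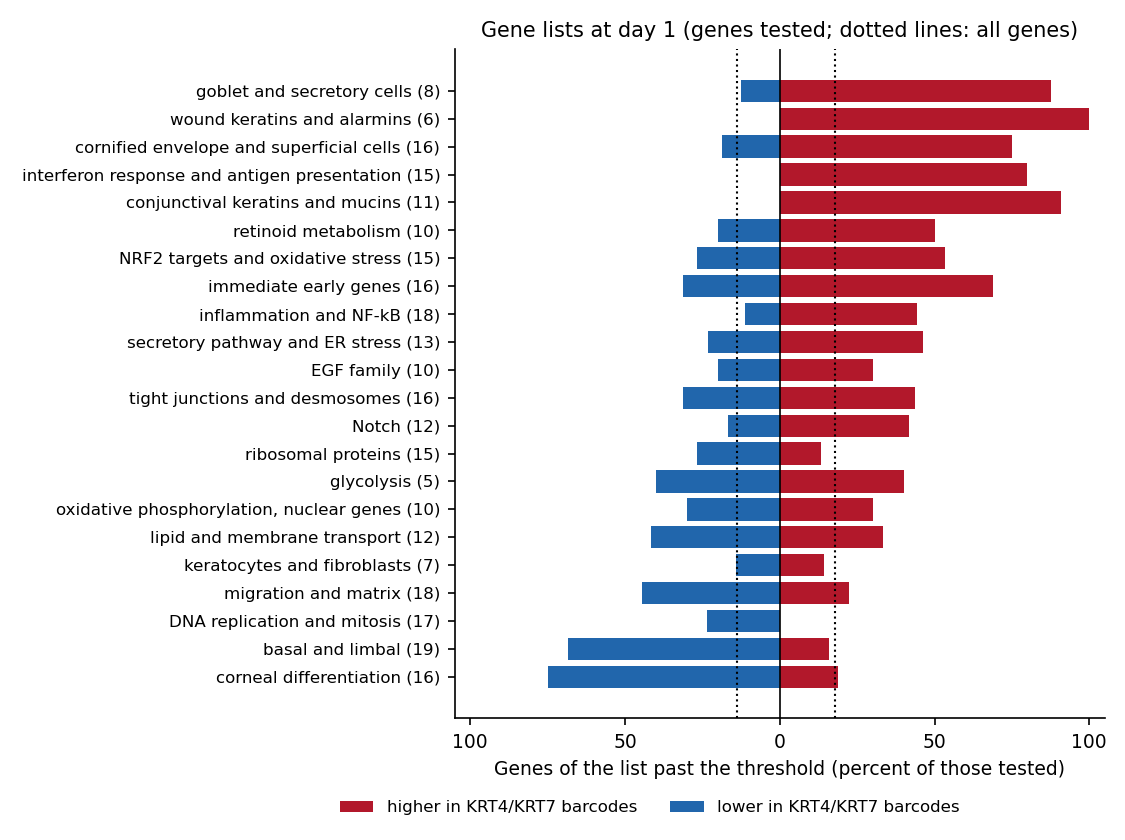
Share of each gene list past the threshold in day 1 KRT4/KRT7 barcodes against the others (x axis, percent of the genes tested; red higher, blue lower; number tested in brackets); dotted lines give the 18% and 13.9% of all tested genes. Lists are ordered by median log2 change, from corneal differentiation (-2.14) to goblet and secretory cells (3.34).

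Among uninjured barcodes split by the same rule, 2663 of 11638 genes passed (22.9%), 1451 higher (12.5%) and 1212 lower (10.4%), and at day 3 2028 passed (17.4%), 1197 higher (10.3%) and 831 lower (7.14%). Whether the difference between KRT4/KRT7 and other barcodes was itself different at day 1 was tested as an interaction with the uninjured samples. It passed for 1266 of 11638 genes (10.9%), 763 towards higher (6.56%) and 503 towards lower (4.32%), against 457 with DESeq2, 841 without the sample block, 761 with depth-matched others and 759 to 933 when 1 sample was left out. With totals alone the split was 468 higher of 1662. KRT24, a keratin of differentiated corneal epithelium, changed sides. At day 1 it stood at 583 and 706 CPM in KRT4/KRT7 barcodes, against 3539 and 3402 CPM in the others. In uninjured cornea it stood at 2184 and 2447 CPM in KRT4/KRT7 barcodes, against 586 and 708 CPM in the others. The interaction was -4.28 ± 0.10 on the log2 scale (edgeR adjusted p = 2.57e-40). KRT3 in KRT4/KRT7 barcodes stood at 158 and 209 CPM at day 1 and 1853 and 1832 CPM in uninjured cornea, whereas the others were at 4047 and 4403 CPM and 3840.0 and 4207 CPM, an interaction of -3.41 ± 0.09. The KRT12 difference was also larger at day 1 (-1.36 ± 0.08), so for all 3 corneal keratins the class difference lay further towards the other barcodes at day 1 than in uninjured cornea.

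IFI27, an interferon-inducible protein, went the other way. At day 1 it had 2246 and 1582 CPM in KRT4/KRT7 barcodes, against 246 and 174 CPM in the others. In uninjured cornea it had 77.8 and 27.7 CPM in KRT4/KRT7 barcodes, against 157 and 127 CPM in the others. The interaction was 4.70 ± 0.18 (edgeR adjusted p = 2.19e-30). Of the 15 interferon and antigen presentation genes 9 had a positive interaction and none a negative one, with a median of 2.06 against 0.01 over all genes. CXCL8 and CXCL6 are neutrophil-attracting chemokines. CXCL8 had 145 and 176 CPM in KRT4/KRT7 barcodes, against 98 and 93 CPM in the others at day 1, and CXCL6 had 222 and 189 CPM against 119.7 and 92.3 CPM. In uninjured KRT4/KRT7 barcodes CXCL8 had 2 counts in all, and CXCL6 stood at 0.985 and 3.55 CPM, below 42.9 and 41.8 CPM in the uninjured others. SLC28A3, a nucleoside transporter, had 194 and 195 CPM at day 1 and 1.97 and 0.711 CPM in uninjured cornea in KRT4/KRT7 barcodes, against 86.7 and 82.8 CPM and 9.80 and 8.81 CPM in the other barcodes of those days, with an interaction of 4.03 ± 0.52. KRT19 had an interaction of 2.19 ± 0.08, with the others at 261 and 249.6 CPM at day 1 and 1009 and 959 CPM in uninjured cornea. The MUC1 interaction of 1.62 ± 0.41 did not pass against depth-matched others (edgeR adjusted p = 0.732) or without uninjured replicate 2 (adjusted p = 0.182), and that of the mucin MUC22 (-3.10 ± 0.75) did not pass without either uninjured sample (adjusted p = 0.0814 and 0.0581). LY6G6C, a LY6-family surface protein, had an interaction of -2.57 ± 0.28.

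Against day 3, the same interaction passed for 1638 genes (14.1%), 976 towards higher (8.39%) and 662 towards lower (5.69%), with 612 for DESeq2 and 730 higher of 1770 with totals alone. TNNT3, a fast skeletal troponin T, had 1481 and 1542 CPM at day 1 and 7.15 and 9.11 CPM at day 3 in KRT4/KRT7 barcodes, against 158 and 164 CPM and 26.5 and 30.5 CPM in the other barcodes of those days, an interaction of 5.04 ± 0.22. PIP had 2926 and 2481 CPM at day 1 and 342 and 301 CPM at day 3 in KRT4/KRT7 barcodes, against 58.7 and 52.8 CPM and 147 and 222 CPM in the other barcodes of those days (4.78 ± 0.15). TMEM45A and FAM3D had interactions of 5.14 ± 0.33 and 4.39 ± 0.21. MUC22 had 8.46 and 11.3 CPM at day 1 and 34.6 and 24.1 CPM at day 3 in KRT4/KRT7 barcodes, against 169 and 179.7 CPM and 15 and 7.16 CPM in the other barcodes of those days (-5.55 ± 0.33). DKK3 and ANGPTL7 had interactions of -5.11 ± 0.45 and -3.81 ± 0.26. GASK1B, a Golgi-associated kinase family member, had 1 count in KRT4/KRT7 barcodes at day 1, and its interaction of -4.13 ± 0.89 did not pass with DESeq2 (adjusted p = 0.0711). KRT19 (2.47 ± 0.08), MUC1 (2.78 ± 0.18), KRT12 (-1.43 ± 0.08) and KRT3 (-1.73 ± 0.10) all separated the classes more at day 1 than at day 3. Day 3 KRT4/KRT7 barcodes include many with KRT7 only, so the classes differ in keratin makeup between these days.

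**Figure D5:**
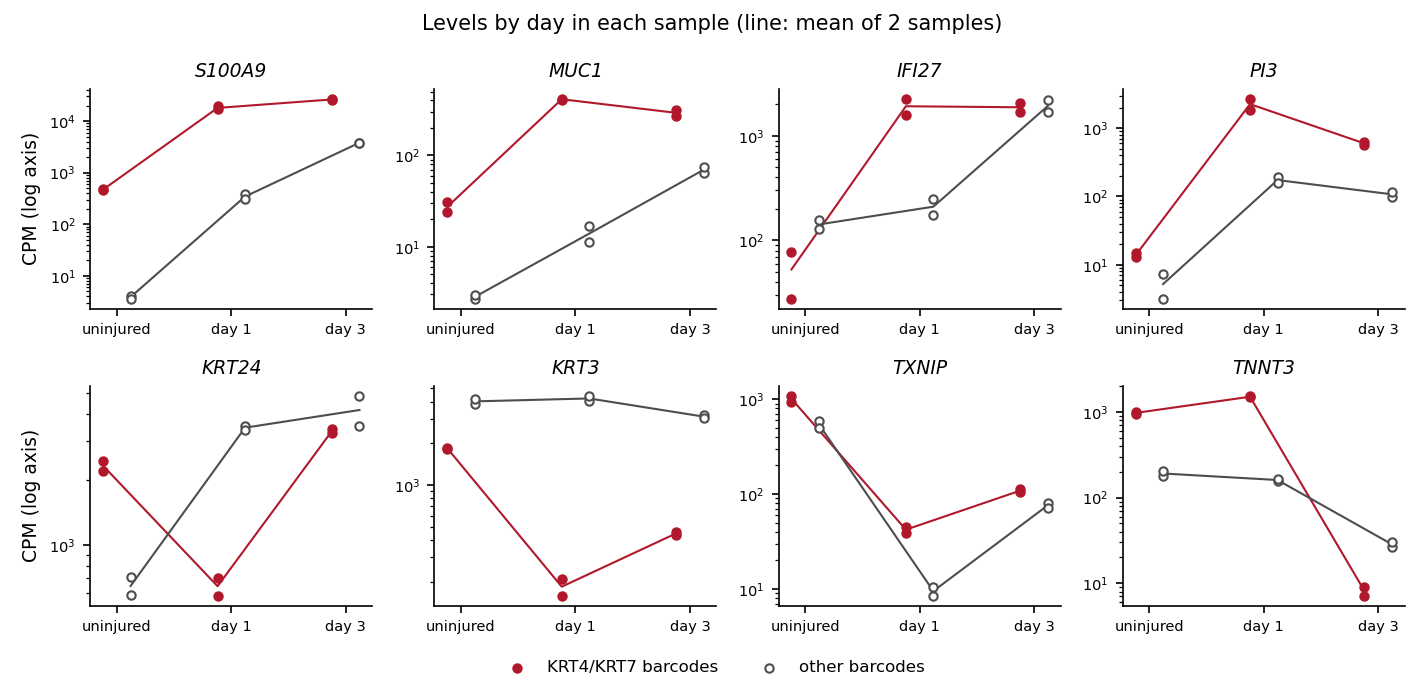
Level of 8 genes in CPM after TMM scaling (y axis, log scale) in uninjured, day 1 and day 3 samples; red filled points are KRT4/KRT7 barcodes, open grey points other barcodes, and lines join the means of 2 samples. KRT24 changed sides between uninjured cornea and day 1, and TNNT3 between day 1 and day 3.

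KRT4/KRT7 barcodes of day 1 were then set against KRT4/KRT7 barcodes of uninjured cornea, to describe how the cells chosen by the rule differ after injury. Of 9599 genes 4546 passed (47.4%), 2419 higher (25.2%) and 2127 lower (22.2%). DESeq2 called 2599, and totals alone moved the median by -0.48 and gave 1369 higher of 5378, so directions are relative to TMM. This comparison and the next share the day 1 samples. A gene counted after injury alone can pass the count filter, so the higher direction of the lists below is partly set by it. In uninjured KRT4/KRT7 barcodes 6 and 4 of 19 inflammation genes and 6 and 7 of 18 migration genes had 0 counts. At day 1 2 and 2 inflammation genes and 2 and 2 migration genes did. All 6 wound keratins and alarmins were higher (median 5.0), as were 15 of 16 inflammation genes (median 2.59, or 1.99 with genes at 0 at their bound or, with no row, left out), 13 of 17 migration genes and 11 of 15 interferon genes (14, 11 and 10 with totals alone, where 1 inflammation and 1 interferon gene were lower). S100A9 had 19225 and 16795 CPM at day 1, against 457 and 486 CPM in uninjured cornea, PI3 had 2678 and 1827 CPM against 14.8 and 12.8 CPM, and MUC1 had 410.0 and 415 CPM against 30.5 and 24.2 CPM, a log2 change of 3.87 ± 0.16. KRT19 did not pass (0.17 ± 0.08, edgeR adjusted p = 0.101). With totals alone it was lower by log2 -0.27 (adjusted p = 0.0113). Without day 1 replicate 2 it passed as higher (log2 0.21, edgeR adjusted p = 0.0305).

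SCGB3A1, a secretoglobin of airway and gland epithelium, had 889 and 404 CPM at day 1, with 1 count in uninjured KRT4/KRT7 barcodes and a row in 1 of the 2 uninjured tables (1651-fold higher, with an exact 95% counting interval of 296 to 65243). TAC1, the precursor of substance P, had 96.8 and 98.2 CPM at day 1, and TAC1, MMP7 and RHCG had no row in either uninjured table. Whether a missing row is a true 0 is not stated, so no fold is given for these 3 genes. The SCGB3A1 fold and its interval enter the 1 missing row as 0 and depend on that reading. Of 16 immediate early genes 13 were lower and IER3 higher (14 and none with totals alone). Of 16 corneal differentiation genes 11 were lower. CYP26A1, a retinoic acid hydroxylase, was among the lowest genes, at 3.76 and 20.1 CPM against 296 and 411 CPM in uninjured cornea. TXNIP, a thioredoxin inhibitor regulated by glucose, stood at 45.1 and 39 CPM against 1081 and 939 CPM. FAT2, an atypical cadherin, stood at 2.82 and 5.04 CPM against 72.9 and 70.4 CPM. PALMD stood at 6.58 and 0 CPM against 68.9 and 77.5 CPM, where the table of day 1 replicate 2 had no row. Within day 1, however, TXNIP was above the level of the others, at 45.1 and 39 CPM in KRT4/KRT7 barcodes, against 8.47 and 10.5 CPM in the others.

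Against KRT4/KRT7 barcodes of day 3, 4595 of 9599 genes passed (47.9%), 2281 higher (23.8%) and 2314 lower (24.1%), with 2510 for DESeq2. TNNT3 had 1481 and 1542 CPM at day 1, against 7.15 and 9.11 CPM at day 3. GPC3, a glypican, had 139 counts at day 1 and 1 at day 3, where 1 of the 2 tables had a row. With the missing row entered as 0 it was 241-fold higher, with an exact 95% counting interval of 42.5 to 9570.2. PTX3, a soluble pattern recognition protein, had 44.2 and 102 CPM at day 1 and 2 counts at day 3 (111-fold higher, with an exact 95% counting interval of 30 to 925), with day 1 replicate 2 above replicate 1. SCGB3A1 had no row in either day 3 table. At the other end, FN1 (fibronectin), the main provisional matrix protein, had 0 counts at day 1, against 864 and 784 CPM at day 3, at least 512-fold lower. SPINK5, an epidermal protease inhibitor, and ARG1 (arginase) had no row in either day 1 table and stood at 1438 and 1833 CPM and 169.8 and 221 CPM at day 3. Of the 17 DNA replication and mitosis genes 10 passed the count filter, and all 10 were lower at day 1. A gene counted at day 3 alone can pass that filter, so this direction is partly set by it. In day 1 KRT4/KRT7 barcodes 5 and 8 of the 17 had 0 counts, and at day 3 none did. KRT12 and KRT3 were lower by log2 -1.26 and -1.35. MUC1 was higher by log2 0.44 ± 0.11, a call lost with DESeq2 (adjusted p = 0.0729), without day 3 replicate 2 (0.0693) and with a rule of 5 or more counts (0.0527).

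Last, day 1 KRT4/KRT7 barcodes were compared among themselves. A test of KRT7-only against KRT4-only barcodes was not possible with 3 KRT7-only barcodes a sample, so barcodes with KRT7 counted (91 and 69 with both keratins plus 3 and 3 with KRT7 only) were set against those with KRT7 at 0 (179 and 151), a split chosen after the data were seen. This split uses a gene of the rule: barcodes with KRT7 at 0 must hold at least 3 KRT4 counts while the rest need not, and KRT7 is counted more readily in deeper barcodes. The calls below therefore describe this split and do not separate KRT7 level from KRT4 level or depth. Of 8630 genes 276 passed (3.2%), 185 higher (2.14%) and 91 lower (1.05%). The count was 25 with DESeq2, 90 without the sample block, 139 with KRT7-zero barcodes matched in depth, and 132 and 152 with 1 day 1 sample left out. Median depths were 4812.5 and 4795 counts with KRT7 counted and 4405 and 3836 counts with KRT7 at 0. GDF15, a stress-induced cytokine, had 63.3 and 70.9 CPM with KRT7 counted, against 13.9 and 5.41 CPM with KRT7 at 0 (log2 difference 2.69 ± 0.45). GDPD3, a lysophospholipase, had 76 and 97.5 CPM with KRT7 counted, against 13.9 and 30.7 CPM with KRT7 at 0 (2.00 ± 0.31). The conjunctival genes MUC1, MUC20 and AQP5 were all higher with KRT7 counted. AQP5 and MUC1 were already among the genes closest to KRT7 over day 1 barcodes, so their direction here is no added support. MUC1 had 572 and 558 CPM with KRT7 counted, against 230.1 and 254 CPM with KRT7 at 0. MUC20 had 304 and 207 CPM with KRT7 counted, against 114 and 115 CPM with KRT7 at 0. AQP5 had 4129 and 4483 CPM with KRT7 counted, against 2324 and 2452 CPM with KRT7 at 0. KRT5 had 2306 and 1778 CPM with KRT7 counted, against 3141 and 3275 CPM with KRT7 at 0, a log2 difference of -0.65 ± 0.06, and KRT19 and PI3 did not pass (0.15 and 0.01). S100P and SPNS2 were higher but lost their calls without day 1 replicate 1, and the 4 lowest genes by the naming rule (TASOR2, UTP11, TRMT6 and TMEM102) each lost theirs without either day 1 sample. Over thinned KRT4/KRT7 barcodes (253 and 207), KRT5 ran against PIP with Spearman's rho of -0.54 and -0.53 and against MUC1 with -0.42 and -0.46, and S100A9 ran with S100A8 at 0.73 and 0.72.

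In the isoform tables of day 1, the share of counts in full splice matches to a known transcript was 63.0% in KRT4/KRT7 barcodes and 62.4% in the others of replicate 1, and 79.4% and 78.6% in replicate 2, where 1234 of the 1267 barcodes had a column. These differences of 0.585 and 0.840 percentage points were 0.729 and -0.0969 points against depth-matched others, so the second sample changed sign. The tables name isoforms by different systems, so shares were compared only within a sample.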

How the data were processed

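Per the labels, cells were captured with 10x Genomics chemistry and sequenced by HIT-scISOseq. The authors deposited 1 gene count table and 1 isoform count table per sample, holding whole-number counts per gene or isoform and barcode; Cell Ranger is named in the submitters' processing notes, while an aligner, genome build, annotation or barcode filter was not given in those sources. The gene tables list 12185 to 13370 genes, 14623 in any and 11206 in all; a gene with no row was entered as 0 and gets no fold against a group without its row. The barcodes, gene lists and tests were chosen with earlier results of these data known.

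Barcodes with 3 or more KRT4 plus KRT7 counts, and all others, were summed per sample, without those genes. The sums were tested with edgeR 4.0.16 (R 4.3.3; TMM scaling, filterByExpr, quasi-likelihood test, Benjamini-Hochberg threshold 0.05). The class test held the sample as a block and a class effect per day over all 6 samples; days were compared in KRT4/KRT7 barcodes alone, without a block. Standard errors follow from the log2 change and its F statistic. Alternatives included DESeq2 1.42.0. Doublets, called with Scrublet in scanpy 1.11.5, were 66 barcodes (0.836%), 6 of them KRT4/KRT7 barcodes at day 1; they were kept and left out as an alternative. Named genes are up to 3 per list with the largest changes past the threshold, the 8 highest and 8 lowest genes at an average of 32 CPM or more in the day 1 comparison, 4 of each in other comparisons, a few keratins and mucins, and the genes most like KRT4 or KRT7. On simulated counts the class test recovered 70 of 100 genes changed by 1 log2 unit and 99 of 100 changed by 2. The day test recovered 54 and 90 of 100. Each made 7 false calls, among 11074 and 9386 tested. The simulated relative spread between sums was a fixed setting above the fitted values (0.041 and 0.076). It had no sample effect, and genes with few counts were not changed. These rates are therefore not the power of the tests in these data.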

Additional observations from a re-analysis of the deposited data

Results flagged for a closer look

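The following genes were marked because the difference between KRT4/KRT7 and other barcodes itself differed between days, by the interaction term of the edgeR fit. Relative to uninjured cornea, the day 1 difference was further towards KRT4/KRT7 barcodes for CXCL8 (5.30 ± 0.50), CXCL6 (5.02 ± 0.41), IFI27 (4.70 ± 0.18), SLC28A3 (4.03 ± 0.52), KRT19 (2.19 ± 0.08) and MUC1 (1.62 ± 0.41), in log2 units with the standard error. It was further towards the other barcodes for KRT24 (-4.28 ± 0.10), KRT3 (-3.41 ± 0.09), MUC22 (-3.10 ± 0.75), LY6G6C (-2.57 ± 0.28) and KRT12 (-1.36 ± 0.08).

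Relative to day 3, the day 1 difference was further towards KRT4/KRT7 barcodes for TMEM45A (5.14 ± 0.33), TNNT3 (5.04 ± 0.22), PIP (4.78 ± 0.15), FAM3D (4.39 ± 0.21), KRT19 (2.47 ± 0.08) and MUC1 (2.78 ± 0.18). It was further towards the other barcodes for MUC22 (-5.55 ± 0.33), DKK3 (-5.11 ± 0.45), GASK1B (-4.13 ± 0.89), ANGPTL7 (-3.81 ± 0.26), KRT12 (-1.43 ± 0.08) and KRT3 (-1.73 ± 0.10). These comparisons share the day 1 samples. No group had the 4 or more samples needed to look for single samples far from the rest.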

How the results depend on the processing

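The number of called genes changed with the tool and the samples used. DESeq2 called 1976 genes between KRT4/KRT7 and other barcodes at day 1, 457 and 612 in the interactions with uninjured cornea and day 3, 2599 and 2510 in KRT4/KRT7 barcodes of day 1 against uninjured cornea and day 3, and 25 by KRT7 count. The interaction with uninjured cornea gave 841 genes without the replicate block and 761 with depth-matched others, and the split by KRT7 count gave 90 and 139. Leaving out 1 sample gave 2375 to 2725 genes at day 1, 759 to 933 and 1135 to 1349 for the interactions, 3450 to 4128 and 3704 to 3998 between days, and 132 to 152 by KRT7 count. The share of barcodes in day 1 replicate 1 was 21.3% with 2 or more counts and 16.1% with 5 or more, and in replicate 2 it was 14.8% with 5 or more. The difference in full splice matches was 0.729 points in replicate 1 and reversed to -0.0969 points in replicate 2 against depth-matched others. KRT19 between day 1 and uninjured KRT4/KRT7 barcodes reversed to -0.27 (log2) with totals alone. The cause of these moves was not tested.

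Over the comparisons, 62 values stayed within 1.5 times the reported count, or within the interval of the reported share, under an alternative, 20 moved further and 1 reversed. That tally goes by the number of called genes and not by their split. Scaling to totals alone turned the majority from higher to lower at day 1 (1457 higher and 3177 lower), against uninjured KRT4/KRT7 barcodes (1369 and 4009) and in the interactions with uninjured cornea (468 and 1194) and day 3 (730 and 1040). Among the remaining values, mostly of single genes, 1643 were kept, 73 lost their call, 1 gained it, 9 moved and 1 reversed. The 9 that moved were not values of single genes. With genes that have a row in all 6 tables, an alternative chosen after the data were seen, the 6 counts were 3549, 1272, 1612, 4466, 4479 and 261. Same-numbered samples did not deviate together (correlations of 0.036, 0.020 and -0.012), so the numbers were not taken as pairs; with the replicate block the comparisons between days gave 4346 and 4427 genes, and without it the day 1 comparison gave 3261 and the interaction with day 3 gave 1211. The planned tests of KRT7-only against KRT4-only barcodes were not run, with 3 KRT7-only barcodes in each day 1 sample. Genes with a few counts are limited by depth, and 2 samples a group limit every test.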

Other observations

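In the isoform table of day 1 replicate 1, 98.5% of the 8775 S100A8 counts in KRT4/KRT7 barcodes lay in isoforms of the class NNC (exact 95% interval 98.2 to 98.7%), and 97.2% of the 399 counts in the others did (95.1 to 98.6%). The isoform classes of replicate 2 did not include NNC, and S100A8 had 1 isoform there, a full splice match. Its 262 counts in KRT4/KRT7 barcodes and 24 in the others could thus fall in no other class. They were a small part of its gene counts in that sample. They cannot be set against the NNC share of replicate 1. MUC1 had 203 isoform counts in KRT4/KRT7 barcodes of replicate 1, 91.6% of them in NNC (86.9 to 95%), against 21 counts in the others, 85.7% of them in NNC (63.7 to 97.0%). S100A9, in contrast, was 99.3% full splice matches in KRT4/KRT7 barcodes of replicate 1 and 99.4% in the others. What NNC stands for is not stated in the labels.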
